A study of Mus musculus with 202 samples.

Results

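Mouse pancreatic ductal adenocarcinoma cells of 1 line that carried similar amounts of the Cdh1 transcript, which encodes the adhesion protein E-cadherin, were compared between a fraction sorted as E-cadherin-negative (Ecad-) and a fraction sorted as E-cadherin-positive (Ecad+). Cells were kept when their Cdh1 value, on the log2(TPM + 1) scale, was from 4 to 6, that is 15 to 63 TPM (a transcript abundance scaled to a fixed total per library). This range held 120 of 197 cells, namely 39 of 97 Ecad- cells and 81 of 100 Ecad+ cells. Both fractions came from a male line labelled KPC and derived from a liver metastasis, grown in serum-containing medium and used at passages 4 to 6. The labels list no alleles for this line. Cells were detached with trypsin, stained with an antibody to E-cadherin, sorted by flow cytometry and captured singly on a microfluidic device. The limits of the sorting gates were not given in the sources used here. Surface protein is thus known only as the sorted fraction, with no value per cell. Since the labels tell no cultures or animals apart, each fraction counts as 1 sample. Differences are therefore described without p-values, and their only repeat is over 3 library sets, named by a suffix whose meaning is not stated.

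E-cadherin is made in the endoplasmic reticulum, glycosylated, trimmed of its propeptide by furin-type convertases and carried to the cell surface together with beta-catenin. At the surface p120-catenin holds it in place, while ubiquitin ligases such as Hakai, proteases of the ADAM family and the endocytic machinery remove it. Cells with transcript but little surface protein could differ from others in any of these steps, in translation or in the wider epithelial programme. In the integrated stress response, phosphorylation of eIF2alpha lowers general translation and favours the transcription factor ATF4, which with CHOP drives genes of amino acid supply and stress adaptation.

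The selected Ecad- cells were a minority of their fraction, since 57 Ecad- cells lay below the range and 1 above it, against 9 and 10 Ecad+ cells. At the lower limit of 4 the nearest Ecad- cells had Cdh1 values of 3.99 and 4.02 and the nearest Ecad+ cells 3.91 and 4.05. At the upper limit of 6 they had 5.90 and 6.87 in the Ecad- fraction and 6.00 and 6.01 in the Ecad+ fraction. Within the range Cdh1 had a lowest, median and highest level of 15.2, 29.9 and 58.7 TPM in Ecad- cells, against 15.6, 35.0 and 62.9 TPM in Ecad+ cells. The range was thus filled almost end to end by both fractions, with the Ecad- cells placed somewhat lower in it. These Cdh1 values chose the cells and are given as a description. Cdh1 lies at chr8:106603351-106670246 in GRCm38.

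**Figure D1:**
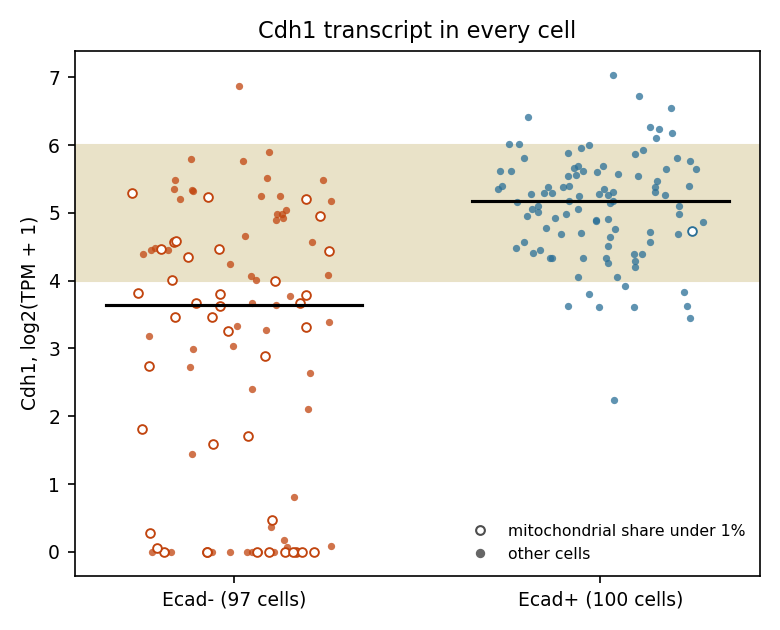
Cdh1 level, log2(TPM + 1), in every cell of the Ecad- and the Ecad+ fraction. Each point is 1 cell, black lines are medians, the shaded band is the range from 4 to 6 that 39 Ecad- and 81 Ecad+ cells fell in, and open points are cells whose mitochondrial genes took under 1% of TPM.

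The 2 groups of cells differed in RNA make-up beside single genes. Mitochondrially encoded genes took a median of 14.8% of TPM in the selected Ecad- cells and 30.0% in the selected Ecad+ cells, and under 1% in 11 of 39 Ecad- cells against 1 of 81 Ecad+ cells. The median number of genes above 0 was 8835 in Ecad- and 10341 in Ecad+ cells, but 4710 and 4763 genes reached 10 TPM. TPM keeps no read depth, so the depth per cell is unknown. Each level below is the mean TPM over the cells of a fraction unless a median is named. Each ratio is log2 of the Ecad- over the Ecad+ mean, with 1 TPM added to both, less 0.29, the median over all genes above an expression floor of 5 TPM. A gene was counted as higher or lower when this log2 ratio was 1 or more in size and had the same sign in each library set. Of 7078 genes above the floor, 344 (4.86%) were higher and 430 (6.08%) lower in Ecad- cells. Without centring on the all-gene median the counts were 612 and 231. Without library set 1 they were 535 and 611, under a looser rule that asked for the same sign only in the sets kept. Over all 197 cells, without selection on Cdh1, the shares were 7.44% and 7.2%. Without the 12 cells of low mitochondrial share, 149 genes (2.16%) were higher and 285 (4.14%) lower, so the counts moved with those cells. Their part in the results was not tested, and values without them, from 28 Ecad- and 80 Ecad+ cells, are given beside the gene groups.

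Genes of the cadherin and catenin complex differed little at matched Cdh1. Of 14 members above the floor, 0 were higher and 1 was lower, where 4.86% and 6.08% of all genes were, and the median log2 ratio was -0.33, or -0.17 without cells of low mitochondrial share. These members include Cdh1 itself, whose ratio of -0.49 was limited by the choice of cells. Ctnnb1, which encodes beta-catenin, had a lowest, median and highest level of 0, 20.1 and 66.0 TPM in Ecad- cells, against 0.529, 20.4 and 77.9 TPM in Ecad+ cells. The 2 distributions overlapped almost entirely, with 19 of 39 Ecad- cells above the Ecad+ median, and the log2 ratio was -0.44. Ctnna1, the gene of alpha-catenin, averaged 63.0 TPM in Ecad- cells, against 61.1 TPM in Ecad+ cells, and plakoglobin (Jup) 23.8 and 24.2 TPM. Ctnnd1, which encodes p120-catenin, had 11.6 TPM in Ecad- cells, against 16.2 TPM in Ecad+ cells, with a log2 ratio of -0.75. The member that was lower was Cdh17, which encodes the intestinal-type cadherin LI-cadherin. Its lowest, median and highest levels were 0, 12.0 and 293 TPM in Ecad- cells, against 0.153, 85.9 and 387 TPM in Ecad+ cells. The ranges overlapped, yet 10 Ecad- cells lay below the lowest Ecad+ cell and 4 above the Ecad+ median. The log2 ratio of Cdh17 was -1.63, and -1.39 without cells of low mitochondrial share.

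Genes of the route to and from the surface also stayed near the all-gene median. Among 32 N-glycosylation genes above the floor none was counted as higher or lower, and the same held for 30 genes of transport between endoplasmic reticulum and Golgi. With 4.86% of all genes higher and 6.08% lower, lists of this size hold few such genes by background alone. The median log2 ratios were -0.13 and 0.03. The largest differences in size were those of Alg13, a subunit of an early N-glycan transferase (0.92), and the oligosaccharyltransferase subunit gene Stt3a (-0.89) among N-glycosylation genes, and of Sec31a, a coat protein gene of transport vesicles (-0.76), among transport genes. Without cells of low mitochondrial share these 3 stood at 0.06, -0.57 and -0.40. Of 28 genes of E-cadherin endocytosis, ubiquitination and recycling, 1 was higher and none lower, with a median of 0.01, a count near the 4.86% of all genes. That gene was Exoc5, an exocyst subunit, with a median of 22.6 TPM in Ecad- cells, against 14.5 TPM in Ecad+ cells, and with means of 76.2 and 22.0 TPM. Vps35, the retromer core subunit, had 221 TPM in Ecad- cells, against 90.9 TPM in Ecad+ cells, and a log2 ratio of 0.99, just short of the limit. Its ratio was 0.59 without cells of low mitochondrial share. Of 15 convertases, sheddases and other proteases that act on E-cadherin, the 2 counted as higher were the lysosomal cathepsins Ctsl (1.11) and Ctsb (1.06), and none was lower. Both cathepsins are also members of the autophagy and lysosome list below. Without cells of low mitochondrial share they stood at 0.91 and 0.65. Timp1, an inhibitor of metalloproteases, stood at -0.77 and Mmp14, a membrane metalloprotease, at -0.61.

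Several keratin, claudin and ductal genes were lower in Ecad- cells although Cdh1 was matched. Of 6 keratins above the floor 4 were lower, of 15 tight junction genes 3, and of 14 ductal and classical pancreatic genes 7, against 6.08% of all genes. Krt19 is counted in both the keratin and the ductal list. No gene of these lists was counted as higher. Above the all-gene median lay 1 keratin, Krt23 (0.15), and 3 tight junction genes, among them Mpp5 (0.94). Aldh1a3 (0.40) and Spp1 (0.11), of the ductal and classical list, also lay above it. Krt18, at -0.76, was not counted as lower. Cldn7, a claudin of tight junctions, had a lowest, median and highest level of 0, 0.212 and 234 TPM in Ecad- cells, against 0, 94.0 and 826 TPM in Ecad+ cells. The ranges overlapped, but 2 of 39 Ecad- cells exceeded the Ecad+ median, and the log2 ratio was -2.32. Without cells of low mitochondrial share Cldn7 stood at -1.96 and Cldn18, another claudin, at -1.28, against -1.26 with all selected cells. Cldn7 then stood at 0.24 in library set 3 and was no longer counted as lower, and neither was Krt19, at -0.85. Krt7, a keratin of ductal epithelium, had a lowest, median and highest level of 0, 133 and 790 TPM in Ecad- cells and 17.5, 595 and 2162 TPM in Ecad+ cells. Of the Ecad- cells 3 were above the Ecad+ median and 7 below the lowest Ecad+ cell. Krt20, a keratin of gastrointestinal epithelium, had the largest keratin difference, with 6.29 TPM in Ecad- cells, against 37.2 TPM in Ecad+ cells, and a log2 ratio of -2.68. Krt19 stood at -1.39 and Krt8 at -1.13. Ctse, an aspartic protease of the stomach lining that marks classical pancreatic tumours, averaged 24.7 TPM in Ecad- cells, against 119 TPM in Ecad+ cells, at -2.51. Msln, the mesothelin gene, and Car2, a carbonic anhydrase gene, stood at -1.60 and -1.66. The list medians were -1.26 for keratins, -0.82 for tight junctions and -0.89 for ductal and classical genes. They were -1.01, -0.49 and -0.83 without cells of low mitochondrial share, with 3, 1 and 4 genes lower. Of all genes 4.14% were then lower, so the count of 1 among 15 tight junction genes is near that share. Epcam, an epithelial adhesion gene, went both ways across library sets, at -1.01, -4.32 and 2.22, and its median was 0 TPM in both fractions.

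Among repressors and activators of Cdh1 transcription, Snai2 was the member with the largest difference. It passed the floor through its Ecad- mean of 21.4 TPM, against 2.30 TPM in Ecad+ cells. Snai3, also a member, lay below the floor and went the other way, at -2.08. Its means were 0.287 TPM in Ecad- cells and 3.46 TPM in Ecad+ cells. Snai2 encodes SLUG, a zinc finger repressor of Cdh1. Its lowest, median and highest levels were 0, 5.97 and 110 TPM in Ecad- cells, against 0, 0 and 24.4 TPM in Ecad+ cells. The upper part of the Ecad- distribution had no counterpart in Ecad+ cells, while both fractions reached 0. Its log2 ratio was 2.47, with 2.14, 2.02 and 3.84 in library sets 1, 2 and 3, and 1.98 without cells of low mitochondrial share. It then fell below the floor, at a mean of 4.68 TPM over both fractions, stood at -0.13 in library set 3 and was no longer counted. Tcf4, an E-box binding factor, was also higher, at 1.02, and Hnf4a, an activator of epithelial genes, was lower, at -1.17. Like Snai2, Tcf4 passed the floor through its Ecad- mean, of 12.7 TPM, against 4.54 TPM in Ecad+ cells. Without cells of low mitochondrial share Tcf4 was counted, at 1.25, and Hnf4a was not, at -0.83. With all selected cells these were the 3 counted, 2 higher and 1 lower, among 9 regulators above the floor, whose median was -0.05. The whole list has 28 genes. Of all genes above the floor 4.86% were higher and 6.08% lower. Of 35 mesenchymal genes 6 passed the floor, Snai2 among them, and Vim, which encodes vimentin, was lower in Ecad- cells, with 249 TPM against 457 TPM in Ecad+ cells, and a log2 ratio of -1.16 (-0.88 without cells of low mitochondrial share, when it was no longer counted).

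Many genes of the integrated stress response were higher in Ecad- cells at matched Cdh1. Of 30 members above the floor 15 were higher and none lower, where 4.86% of all genes were higher. Their median log2 ratio was 1.04, with 0.67, 1.60 and 0.86 within sets, and 24 of 30 lay above the all-gene median. Ddit3, which encodes CHOP, had a lowest, median and highest level of 0, 85.4 and 4418 TPM in Ecad- cells, against 0, 6.78 and 895 TPM in Ecad+ cells. Of 39 Ecad- cells 32 exceeded the Ecad+ median and 8 exceeded the highest Ecad+ cell. The log2 ratio of Ddit3 was 4.16, with 2.90, 6.28 and 3.74 within sets. Atf4 had a lowest, median and highest level of 12.1, 192 and 2438 TPM in Ecad- cells and 0.745, 59.2 and 655 TPM in Ecad+ cells, at a log2 ratio of 1.59. Again 32 Ecad- cells exceeded the Ecad+ median, but 2 exceeded the highest Ecad+ cell. Nupr1, a stress-inducible chromatin protein gene, averaged 901 TPM in Ecad- cells, against 133 TPM in Ecad+ cells, at 2.47. Trib3, a pseudokinase that is a CHOP target, had a median of 16.4 TPM in Ecad- cells, against 0 TPM in Ecad+ cells, at 2.13. Slc7a3, a transporter of cationic amino acids, stood at 2.01 but had a median of 0 TPM in both fractions. The mean log2(TPM + 1) of the list in each cell had a median of 4.63 in Ecad- cells, against 3.48 in Ecad+ cells. Without cells of low mitochondrial share these per-cell medians were closer, at 3.71 and 3.48. The median ratio of the list was then 1.00 and 8 members were higher, where 2.16% of all genes were. Ddit3 then stood at 2.95, Nupr1 at 1.82, Trib3 at 2.24 and Atf4 at 1.06. Of these Trib3 was no longer counted, since it stood at -0.38 in library set 3. Members near or below the all-gene median included Atf3 (-0.05), Psat1 (-0.16) and Phgdh (-0.38), the last 2 of serine synthesis. Psph, also of serine synthesis, was among the 15 counted as higher with all selected cells.

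**Figure D2:**
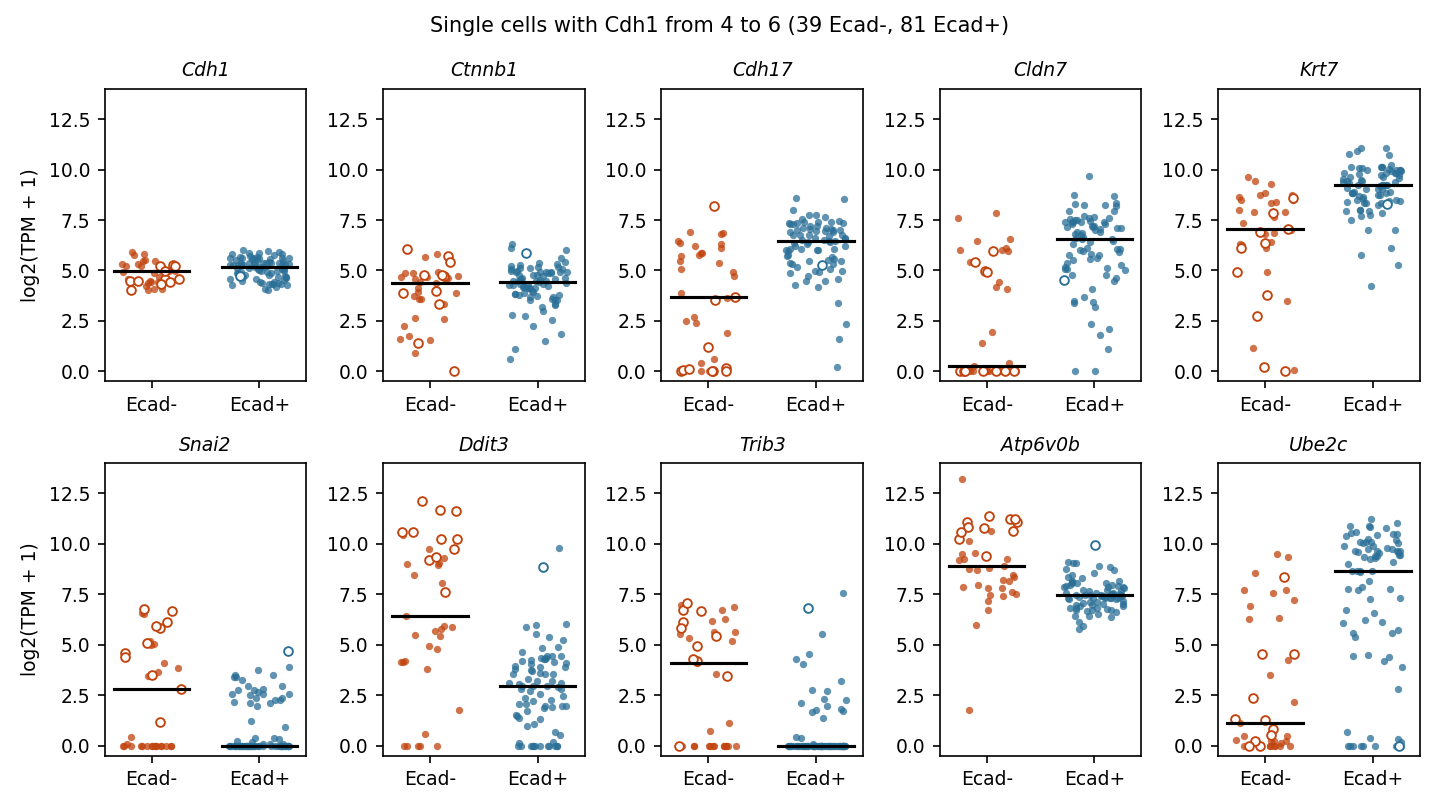
Levels of 10 genes, log2(TPM + 1), in the 39 Ecad- and 81 Ecad+ cells with Cdh1 from 4 to 6. Each point is 1 cell, black lines are medians and open points are cells with a mitochondrial share under 1%. Cdh1 and Ctnnb1 overlap between the fractions, while Cdh17, Cldn7, Krt7 and Ube2c sit lower and Snai2, Ddit3, Trib3 and Atp6v0b higher in Ecad- cells.

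ATF4 and CHOP bind, with C/EBP partners, to composite elements of the form TGATGNAA or, on the other strand, TTNCATCA. RefSeq promoter windows of 300 bases, from 250 before to 50 after the annotated start, were searched on both strands for these letters. Of the 15 stress response genes that were higher, 12 had at least 1 window and 6 of those held the letters. Of the 15 members above the floor that were not higher, 13 had a window and 3 of those held them. Of all 27025 genes with a window, 1219 (4.51%) held them, and of all 32851 windows, 1304 (3.97%). The windows of Trib3 (chr2:152344011-152344310, minus strand), Nupr1 (chr7:126625421-126625720, minus strand) and Herpud1 (chr8:94386179-94386478, plus strand), in GRCm38.p6, are shown with the matching letters in capitals, because these 3 genes were named above the limit of 1 and held a match. The match begins 14 bases after the annotated start in Trib3, and 110 and 112 bases before it in Nupr1 and Herpud1. A match is a description of sequence and not evidence of binding.
Trib3: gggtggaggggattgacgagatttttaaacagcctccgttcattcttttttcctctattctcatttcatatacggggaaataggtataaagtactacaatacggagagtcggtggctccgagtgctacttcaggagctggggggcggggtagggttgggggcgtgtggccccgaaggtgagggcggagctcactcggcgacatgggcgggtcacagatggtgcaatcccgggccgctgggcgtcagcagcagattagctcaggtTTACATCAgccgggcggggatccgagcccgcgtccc
Nupr1: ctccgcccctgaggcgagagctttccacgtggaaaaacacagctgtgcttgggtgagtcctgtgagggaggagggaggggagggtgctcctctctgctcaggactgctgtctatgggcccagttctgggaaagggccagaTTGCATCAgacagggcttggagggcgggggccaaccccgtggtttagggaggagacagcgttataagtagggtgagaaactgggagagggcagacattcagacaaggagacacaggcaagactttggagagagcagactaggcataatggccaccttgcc
Herpud1: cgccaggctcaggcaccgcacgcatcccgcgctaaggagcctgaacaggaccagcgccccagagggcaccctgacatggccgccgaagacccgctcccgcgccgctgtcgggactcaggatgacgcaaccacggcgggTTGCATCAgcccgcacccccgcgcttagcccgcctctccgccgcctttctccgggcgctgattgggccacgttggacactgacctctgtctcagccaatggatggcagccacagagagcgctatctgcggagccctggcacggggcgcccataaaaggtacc

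Other lists of the endoplasmic reticulum and of translation had medians between -0.14 and 0.16. Their counts stand beside 4.86% of all genes higher, and lists with 1 such gene are near that share. Herpud1 and Eif4ebp1, named here, are also among the 15 stress response genes counted above. Chaperones and other members of the unfolded protein response had a median log2 ratio of 0.16 over 33 genes, with 3 higher and none lower. These were Dnajb9, a co-chaperone of the endoplasmic reticulum, at 2.12, and the transcription regulator genes Crebrf and Crebzf at 1.90 and 1.57. Dnajb9 had a lowest, median and highest level of 0, 88.2 and 813 TPM in Ecad- cells, against 0, 14.2 and 123 TPM in Ecad+ cells, with 32 of 39 Ecad- cells above the Ecad+ median. Hspa5, which encodes the chaperone BiP, had a median of 303 TPM in Ecad- cells, against 149 TPM in Ecad+ cells. The mean was 297 TPM in Ecad- cells, against 199.6 TPM in Ecad+ cells. With a log2 ratio of 0.28 Hspa5 was not counted as higher. Of 26 genes of endoplasmic reticulum-associated degradation, Herpud1, a scaffold of the degradation complex, was higher at 1.06. The eIF2alpha kinases and stress sensors had a median of -0.14 over 15 genes with none counted either way. Of 23 cytosolic aminoacyl-tRNA synthetases, Nars was higher at 1.06, and of 28 translation initiation genes, Eif4ebp1, a repressor of cap-dependent translation, at 1.20. Without cells of low mitochondrial share neither was counted, with -0.90 for Nars and -0.70 for Eif4ebp1 in library set 3. The synthetase Sars was then counted as higher, at 1.09. The synthetase median was then 0.33, against 0.06 with all selected cells.

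Many genes of the lysosome and its proton pump were higher as well, where 4.86% of all genes were. Of 17 subunit and accessory genes of the vacuolar proton pump, which acidifies lysosomes and endosomes, 10 were higher and none lower, with a median log2 ratio of 1.29. Atp6v0b, a subunit of the membrane sector, had a lowest, median and highest level of 2.43, 471 and 9488 TPM in Ecad- cells, against 53.3, 174 and 969 TPM in Ecad+ cells. Of the Ecad- cells 34 of 39 lay above the Ecad+ median and 13 above the highest Ecad+ cell, at a log2 ratio of 2.02. Atp6ap2, an accessory protein gene, had 18 Ecad- cells above the highest Ecad+ cell, at 1.79. Atp6v1d stood at 1.86 and Atp6v0d1 at 1.75. Of 36 autophagy and lysosome genes 16 were higher and none lower, with a median of 0.82. Hexa, a lysosomal hexosaminidase subunit gene, stood at 2.60, and Fnip1 and Rragc, which act in nutrient sensing at the lysosome, at 2.30 and 1.75. Both lists moved with the cells of low mitochondrial share. Without them the proton pump list had a median of 0.75 with 7 genes higher, and the autophagy and lysosome list a median of 0.61 with 7 genes higher. Of all genes 2.16% were then higher.

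Most mitosis genes were lower in Ecad- cells at matched Cdh1. Of 48 G2/M and mitosis genes above the floor 44 were lower, where 6.08% of all genes were, and all 48 had negative ratios. Their median was -1.71, with -1.33, -2.13 and -2.99 within sets. Ube2c, a ubiquitin-conjugating enzyme gene of mitotic exit, had a lowest, median and highest level of 0, 1.14 and 735 TPM in Ecad- cells, against 0, 409 and 2429.6 TPM in Ecad+ cells. Just 2 of 39 Ecad- cells exceeded the Ecad+ median, and the log2 ratio was -3.13. Aurkb, Plk1 and Top2a, which encode 2 mitotic kinases and a DNA topoisomerase, stood at -2.69, -2.46 and -2.39, and Mki67 at -1.59. Of 38 G1/S and DNA replication genes 13 were lower and none higher, again beside 6.08% of all genes, with a median of -0.86. Tk1, thymidine kinase, averaged 29.4 TPM in Ecad- cells, against 99.8 TPM in Ecad+ cells, at -2.01. Without cells of low mitochondrial share the medians were -1.34 and -0.71, with 37 and 9 genes lower, where 4.14% of all genes were. Cdkn1a, which encodes the cell cycle inhibitor p21, was higher at 1.54 (104 TPM in Ecad- cells, against 28.7 TPM in Ecad+ cells), but stood at 0.18 without those cells. The list of CDK inhibitors and p53 targets, which holds Cdkn1a, had a median of 0.04 over 18 genes. Of these 3 were higher and 2 lower, beside 4.86% and 6.08% of all genes. The lower ones were Rb1 at -1.23 and Phlda3 at -1.18, and the higher ones Cdkn1a, Gadd45a and Pmaip1 (2.35). Rb1 and Phlda3 passed the floor through their Ecad+ means, of 8.03 and 7.12 TPM, against 3.71 and 3.36 TPM in Ecad- cells. Gadd45a, a stress-induced growth arrest gene, stood at 2.41 with all selected cells and at 2.40 without cells of low mitochondrial share. Of 16 MAPK-driven genes 4 were lower, beside the same 6.08%, among them Ccnd1, which encodes cyclin D1, at -1.44 (-0.95 without those cells).

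Lists of immune recognition, inflammation and oxidative stress had medians under 0.5 in size, and their counts stand beside 4.86% of all genes higher and 6.08% lower. None of 12 class I antigen presentation genes was counted as higher or lower, and their median log2 ratio was 0.15. B2m, the light chain gene, had a lowest, median and highest level of 52.3, 458 and 2185 TPM in Ecad- cells, against 27.2, 205 and 612 TPM in Ecad+ cells. The Ecad- cells reached further up, with 11 above the highest Ecad+ cell, at a log2 ratio of 0.87. H2-D1 and H2-K1, paralogs between which reads can be split, stood at 0.95 and 0.18. Of 15 NF-kB and cytokine genes 3 were higher, namely Ccl20 (3.17), Cxcl16 (1.26) and the inhibitor gene Nfkbia (1.22). The Ccl20 mean rested on 7 Ecad- and 5 Ecad+ cells above 0. Ccl20 passed the floor through its Ecad- mean of 21.8 TPM, against 1.08 TPM in Ecad+ cells. Pvr, a ligand of natural killer cell receptors, was higher at 1.16, and Lgals9, which encodes galectin-9, lower at -1.12 (-0.57 without cells of low mitochondrial share). Pvr too passed the floor through its Ecad- mean, of 12.8 TPM, against 4.05 TPM in Ecad+ cells. Among 25 oxidative stress genes, Hmox1, the ferritin light chain gene Ftl1 and its heavy chain partner Fth1 were higher, at 1.68, 1.04 and 1.01, and the glutathione transferase gene Gsta4 was lower, at -2.04. Without cells of low mitochondrial share 1 gene of that list was higher and 1 lower, near the 2.16% and 4.14% of all genes.

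Genes were also ranked by the smallest of their 3 library-set ratios, and Ddit3 came first among the 12 higher genes taken. Mfsd1, a transporter gene of the lysosomal membrane, stood at 2.30, Ankrd12 at 2.01, Ifrd1 at 1.96 and Paxbp1 at 1.95, and without cells of low mitochondrial share at 2.16, 1.74, 1.46 and 1.52. The histone genes Hist1h4h and Hist1h2bc stood at 3.67 and 2.35, but at 1.16 and 0.37 without those cells, when neither was counted. Among the 12 lower genes Aurkb, Ube2c, Ctse, Top2a, Plk1 and Krt20 were joined by Ripply3 (-2.73), D17H6S56E-5 (-2.35) and Tuba1c, a tubulin gene (-2.09). These 3 stood at -2.23, -1.89 and -1.98 without cells of low mitochondrial share.

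**Figure D3:**
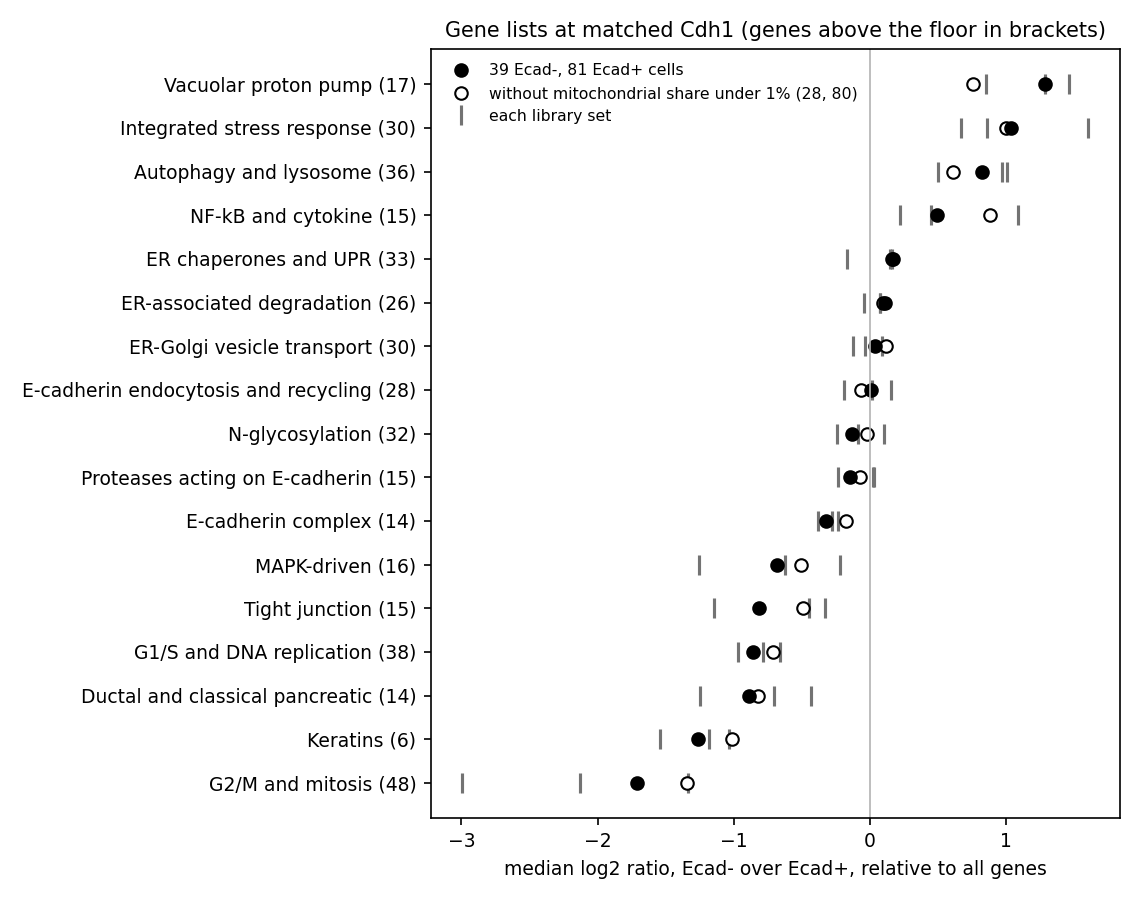
Median log2 ratio, Ecad- over Ecad+, relative to all genes, for 17 gene lists in cells with Cdh1 from 4 to 6. Filled points use 39 Ecad- and 81 Ecad+ cells, open points leave out cells with a mitochondrial share under 1%, and bars are the 3 library sets. Lists of E-cadherin transport, glycosylation and processing lie near 0, between stress response and lysosome lists on the right and epithelial and proliferation lists on the left.

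The mean log2(TPM + 1) over the stress response genes was computed for each cell. Its lowest, median and highest values were 2.40, 4.63 and 6.75 in Ecad- cells, against 2.08, 3.48 and 7.10 in Ecad+ cells. All 39 Ecad- cells lay within the Ecad+ range, and 26 lay above the Ecad+ median. The top of the Ecad+ range rested on 2 cells, at 7.10 and 6.99, the second of them the Ecad+ cell of low mitochondrial share. The next Ecad+ cell was at 6.10, and 7 Ecad- cells lay above it. The 11 Ecad- cells of low mitochondrial share had a median of 5.34, from 4.30 to 6.23. The other 28 Ecad- cells had a median of 3.71, from 2.40 to 6.75, against 3.48 in the other 80 Ecad+ cells. Over cells of the same fraction the stress response mean went down with the mitochondrial share, with a Spearman correlation of -0.54 in 39 Ecad- cells and -0.59 in 81 Ecad+ cells. For the proton pump genes it was -0.83 and -0.63. With the number of genes above 0, which differed between the fractions, it was 0.48 in Ecad- and 0.32 in Ecad+ cells for the stress response mean, and 0.50 and 0.48 for the G2/M mean. Gene means and mitochondrial share are parts of the same TPM total within a cell, so they are not independent. The mean of the G2/M genes had a median of 1.20 in Ecad- and 5.38 in Ecad+ cells, with 3 of 39 Ecad- cells above the Ecad+ median. Between the stress response and G2/M means the Spearman correlation was 0.05 in Ecad- and 0.01 in Ecad+ cells.

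**Figure D4:**
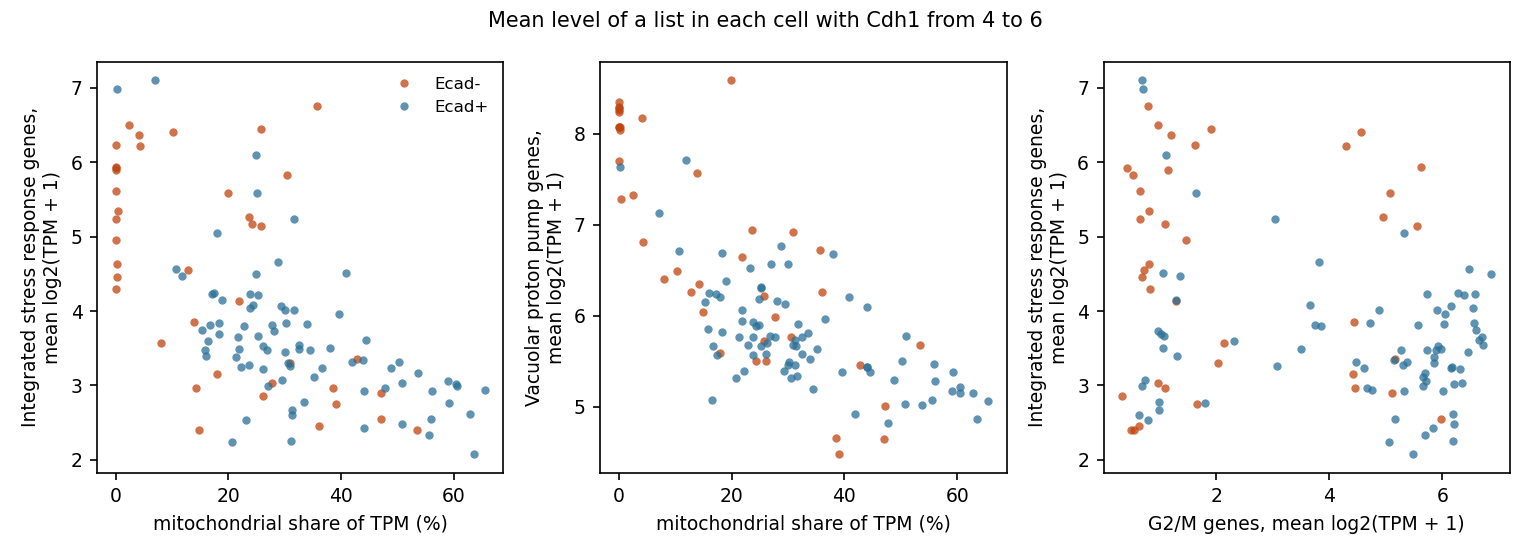
Mean log2(TPM + 1) of gene lists in each of the 39 Ecad- and 81 Ecad+ cells with Cdh1 from 4 to 6. The left and middle panels plot stress response and vacuolar proton pump genes against the mitochondrial share of TPM, and the right panel plots stress response against G2/M genes. Ecad- cells of low share cluster at the upper left of the first 2 panels, and G2/M means are low in most Ecad- cells.

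The differences were also read in each part of the Cdh1 range. From 4 to 5 there were 22 Ecad- and 33 Ecad+ cells, and from 5 to 6 there were 17 and 48. The log2 ratio of Ddit3 was 3.62 in the lower and 4.79 in the upper part, that of Snai2 2.68 and 1.97, and that of Cldn7 -1.98 and -2.67. The stress response median was 0.66 in the lower and 1.32 in the upper part, and the G2/M median -1.64 and -2.04. The autophagy and lysosome median was 1.24 in the lower and 0.44 in the upper part, a gap of over 1.5 times. Ecad- cells below the range, with a median Cdh1 of 2.03 TPM, were set beside the selected ones by their per-cell means. Their median was 4.85 for the stress response and 1.53 for G2/M genes, near the 4.63 and 1.20 of the selected Ecad- cells. For keratins it was 5.42, against 6.67 in selected Ecad- and 8.17 in selected Ecad+ cells. For ductal and classical genes it was 3.31, against 4.75 and 5.85. A mitochondrial share under 1% was found in 29 of 57 Ecad- cells below the range, 11 of 39 selected Ecad- cells and 1 of 81 selected Ecad+ cells. Without such cells the keratin median was 6.56 in Ecad- cells below the range, against 6.84 in selected Ecad- and 8.19 in selected Ecad+ cells, and the ductal and classical median 4.21, against 5.13 and 5.89. The stress response median was then 3.74 in Ecad- cells below the range and 3.71 in selected Ecad- cells.

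Markers of other cell types were read over whole lists, and their part in the results was not tested. Of 20 immune markers 10 were at 0 in all selected Ecad- cells and 11 in all selected Ecad+ cells, Ptprc and Cd3e among them in both, and the median summed level was 1.40 TPM in Ecad- cells, against 0.515 TPM in Ecad+ cells (highest 370.1 and 40.5 TPM). Cd68 alone exceeded a mean of 5 TPM, in Ecad- cells. Summed levels of 12 fibroblast markers reached 22.0 TPM in Ecad- cells, against 14.9 TPM in Ecad+ cells, with Col3a1, Dcn and Pdgfrb at 0 in both. Of 12 endothelial markers 5 were at 0 in all selected Ecad- cells and 4 in all selected Ecad+ cells, Pecam1 and Cdh5 among them in both, while Egfl7 exceeded a mean of 5 TPM in both. Their median sum was 1.34 TPM in Ecad- cells, against 9.70 TPM in Ecad+ cells (highest 58.3 and 61.5 TPM). Of 12 hepatocyte markers 7 were at 0 in all selected Ecad- cells and 6 in all selected Ecad+ cells, Alb among them in both, while Apob and Ttr exceeded a mean of 5 TPM in both. Their median sum was 11.9 TPM in Ecad- cells, against 20.1 TPM in Ecad+ cells (highest 649 and 167 TPM). Acinar and endocrine markers summed to a median of 0 TPM in both fractions. The summed level of 9 carcinoma epithelial markers had a median of 2059.5 TPM in Ecad- cells, against 4519 TPM in Ecad+ cells. The 13 mitochondrially encoded messenger RNAs had a median log2 ratio of -1.04, with -0.53, -1.97 and -0.04 within sets, so their difference at matched Cdh1 was uneven between sets. Of these, 5 were lower, and without cells of low mitochondrial share none was, at a median of -0.45.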

How the data were processed

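Single-cell libraries of both sorted fractions were made with SMARTer and Nextera XT kits, a chemistry without molecular identifiers or strand marking. FastQC 0.11.5, kallisto and build mm10 appear in the submitters' processing notes. How transcripts were indexed and summed per gene, and whether cells were filtered, were not given in the sources used here. For 28987 genes in 202 libraries, the authors deposited log2 values. Back-transformed, each library summed to 933711 to 987134, so the deposited values were read as log2(TPM + 1), with TPM as the unit of level. The deposited fold changes and p-values, which treat cells as replicates, were not used.

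Libraries with a Pearson correlation over 0.97 across genes (5 pairs, the next at 0.94) were averaged as 1 cell. Of these pairs 2, both Ecad+, lay in the range. Each library comes from 1 capture chamber. No doublet caller was run, so chambers with more than 1 cell were not looked for. The selected libraries numbered 16, 16 and 7 Ecad- and 23, 29 and 31 Ecad+ in library sets 1, 2 and 3. Ratios, the floor (5 TPM over the selected cells and above 0 in 10% of them), centring and the rule for a higher or lower gene are given with the results; in each set, ratios were centred on that set's own median (0.16, 0.56 and -0.22). Calculations used Python 3.11.15 and numpy 2.4.6, and the ratio and counting steps were tested on simulated data with planted changes. Because each fraction is 1 sample, no test was made.

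The cells and the 37 gene lists were chosen with earlier results of these data known. Named genes are 18 taken whatever their values, at most 4 members per list (those with the largest ratios in size), the 12 higher and 12 lower genes ranked first by the smallest of their library-set ratios, and 6 list genes that moved most on matching. Atf3, Psat1, Phgdh, Psph, Snai3, Rb1, Phlda3, Fth1, Krt18, Krt23, Mpp5, Aldh1a3 and Spp1 were named after their values were seen. The table holds no match for 4 list genes, which were not used here. Gene positions come from GENCODE M21. The alternatives were other Cdh1 ranges, pairing or weighting by Cdh1, other means, pseudocounts, floors and scalings, cell filters and each library set left out.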

Additional observations from a re-analysis of the deposited data

How the results depend on the processing

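No paired analysis was possible because the replicate numbers only count the captured cells of a fraction, and no cell of one fraction belongs to a cell of the other. The ranges of 4 to 5 and 5 to 6, pairing by Cdh1 within library sets and the mitochondrial share of 10 to 45% were chosen after seeing the data. The log2 ratio of Ddit3 lay between 2.95 and 5.46 over the alternatives run. The counts of 344 higher and 430 lower genes were 187 and 153 with a pseudocount of 10, 612 and 231 without centring, 92 and 109 with a floor of 50 TPM, and 849 and 970 at a limit of 0.58. They were 149 and 285 without cells of a mitochondrial share under 1%. Higher genes numbered 845 with no floor, 189 at Cdh1 from 5 to 6 and 193 at a mitochondrial share from 10 to 45%, and lower genes 648 with a mean of log values. Leaving out 1 library set gave 287 to 535 higher and 443 to 611 lower genes, the 535 without library set 1. The same sign was then asked for only in the sets kept, which is a looser rule.

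The E-cadherin complex median of -0.33 was -0.15 at Cdh1 from 4.5 to 5.5, -0.48 from 3.5 to 6.5, -0.23 with a mean of log values, -0.22 with a pseudocount of 10, -0.039 without centring, -0.11 with no floor and -0.25 with a floor of 50 TPM. It was -0.17 without cells of low mitochondrial share, -0.23 without the 10% of cells with the fewest genes, -0.058 at a mitochondrial share from 10 to 45%, and -0.38 to -0.21 when 1 library set was left out. The keratin median of -1.26 was -1.63 with a mean of log values, -0.97 without centring, -0.30 with no floor, -0.93 at a mitochondrial share from 10 to 45%, and -1.57 to -1.12 when 1 library set was left out, -1.57 being without set 1. The autophagy and lysosome median of 0.82 was 1.11 without centring, 1.24 at Cdh1 from 4 to 5, 0.44 from 5 to 6 and 0.52 at a mitochondrial share from 10 to 45%. The proton pump median of 1.29 was 0.75 without cells of low mitochondrial share and 0.65 at a share from 10 to 45%. The stress response and G2/M medians were 0.88 to 1.40 and -1.93 to -1.60 when 1 library set was left out. Of the gene lists, 11 had a median of 0.5 or more in size on the same side in every set, and 7 did with no floor, 7 at Cdh1 from 5 to 6 and 6 at a mitochondrial share from 10 to 45%.

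Directions turned in several results, and not all of them are listed here. Without cells of low mitochondrial share Epcam was 0.14, against -0.40 with all selected cells. The median of the Cdh1 regulators was then 0.04, against -0.05. That of the endocytosis, ubiquitination and recycling genes was then -0.07, against 0.01. The eIF2alpha kinase median of -0.14 was 0.14 without centring, 0.37 with no floor and 0.26 with a floor of 50 TPM. The class I median of 0.15 was -0.016 with a floor of 50 TPM, the NF-kB and cytokine median of 0.49 was -0.089 at Cdh1 from 4 to 5, and mt-Co3 was 0.035 at a mitochondrial share from 10 to 45%. The cause of these changes was not tested. TPM keeps no depth, so what depth limits cannot be given.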
